A study of Mus musculus with 2 samples.

Results

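The genes for cytosolic ribosomal proteins were followed in CpG methylation data from mouse myotubes with and without knockdown of the long non-coding RNA H19. Members were the autosomal protein-coding genes whose GENCODE symbol is Rpl, Rps or Rplp followed by a number and, where present, a copy letter, with pseudogenes left out. This gave 79 of 20807 autosomal protein-coding genes, made up of 46 Rpl genes of the large subunit, 30 Rps genes of the small subunit and 3 Rplp genes of the stalk. A further 4 matching symbols lie on chromosome X and 6 are annotated as pseudogenes, Rps4l among them, and these were not members. All 79 genes held at least 1 compared cytosine, and together they held 5109 of the 1795680 cytosines compared on autosomes.

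Ribosomal proteins surround the ribosomal RNA of the large and small subunits, and nearly every one is needed for translation in every cell. Their genes are transcribed at high rates from CpG-rich promoters, and many of their messenger RNAs begin with an oligopyrimidine tract through which translation follows nutrient signals. A few genes are copies with restricted use, such as Rpl3l in heart and skeletal muscle and Rpl10l and Rpl39l in the male germ line. Methylation of CpG cytosines around a promoter is usually low at genes in constant use and high at many genes restricted to other tissues.

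Mouse C3H myoblasts (Sigma-Aldrich) had been grown into myotubes, muscle cells with many nuclei formed by fusion. The myotubes received a control small interfering RNA (siCon) or one against H19 (siH19), and DNA was taken 48 h later. The study proposed that H19 acts on DNA methylation through SAHH, the enzyme that removes the methylation product S-adenosylhomocysteine, so the comparison asked whether methylation differed after knockdown. There was 1 library per group and no other allele or agent, so p-values compare 2 libraries and not 2 conditions, and differences between cultures cannot be told apart from the knockdown. H19 RNA was not part of these files, and neither the knockdown nor the myotube state could be checked from them.

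Reduced representation bisulfite sequencing reads the CpG-rich ends of short fragments cut by MspI (CCGG) and TaqαI (TCGA). The siCon file summed to 104999613 reads over CpG cytosines and the siH19 file to 106372792. Cytosines entered with at least 5 reads in each library and outside the CCGG and TCGA sites themselves. The median member cytosine carried 31 reads in siCon and 31 in siH19, against 24 and 24 for all compared cytosines. A promoter is the window within 1 kb of the gene start, and a gene body is the rest of the gene. Region levels are percentages of methylated reads averaged over cytosines with the same weights in both libraries, and differences are siH19 minus siCon in percentage points with a 95% interval. Intervals cover counting error only, and neighbouring cytosines share reads, which makes intervals too narrow and p-values too small.

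The sequence around the start shows what was measured and which promoters stood apart. The following stretches are GRCm38 sequence on the gene's strand, and capitals mark the CpGs that were compared on at least 1 strand. Rpl9 and Rpl22l1 are shown as unmethylated promoters, Rpl39l and Rpl10l as methylated ones. Rpl9 is chr5:65391419-65391574 (minus strand), Rpl22l1 is chr3:28805306-28805461 (plus), Rpl39l is chr16:10170091-10170251 (plus) and Rpl10l is chr12:66284376-66284526 (minus). Each stretch ends 25 bases after the first base of the gene, and the part before that base is upstream of the annotated gene.
Rpl9: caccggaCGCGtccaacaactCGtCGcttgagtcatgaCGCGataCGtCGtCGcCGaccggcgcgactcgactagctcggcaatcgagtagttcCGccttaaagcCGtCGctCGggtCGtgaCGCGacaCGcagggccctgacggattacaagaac
Rpl22l1: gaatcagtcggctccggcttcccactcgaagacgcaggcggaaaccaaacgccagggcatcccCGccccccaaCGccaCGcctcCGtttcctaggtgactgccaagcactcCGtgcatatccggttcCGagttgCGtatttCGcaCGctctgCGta
Rpl39l: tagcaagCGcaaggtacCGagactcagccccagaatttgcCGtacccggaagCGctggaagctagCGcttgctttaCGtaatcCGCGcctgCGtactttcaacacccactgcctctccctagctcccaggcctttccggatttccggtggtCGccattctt
Rpl10l: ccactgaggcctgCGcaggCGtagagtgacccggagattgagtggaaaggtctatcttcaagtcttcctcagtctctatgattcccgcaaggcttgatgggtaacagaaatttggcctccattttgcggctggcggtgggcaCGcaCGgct

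Over the 32 cytosines in the Rpl9 stretch the methylation level was 0.134% in siCon and 0.122% in siH19, with 6 to 25 reads per cytosine in siCon and 13 to 38 in siH19. The 19 cytosines of the Rpl22l1 stretch stood at 0.969% and 0.198%. The 19 cytosines of the Rpl39l stretch, of a gene whose product is a copy of the small exit-tunnel protein Rpl39, stood at 81.9% and 80.2%. The 8 cytosines of the Rpl10l stretch, of a copy of Rpl10, stood at 71.1% and 59.2%, on only 7 to 13 reads each in siH19. The Rpl39l stretch is as rich in compared CpGs as that of Rpl22l1, with 10 in each, and the levels of the pair lay far apart in both libraries.

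Sequence features that the choice of members did not use were also described. In the 300 bases from 250 before the gene start, members held a median of 19 CpGs against 12 for all protein-coding genes, and the ratio of observed to expected CpGs was 0.827 against 0.540, at the same median GC content of 55.3%. The muscle copy Rpl3l held 2 CpGs there, the lowest ratio of the genes named here at 0.0893, while Rpl10l held 13 and Rpl39l held 17. Members thus included CpG-rich windows at methylated genes as well as at unmethylated ones.

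Short strings were searched in the same 300 bases on both strands, and no string contains another. GGGCGG, the GC box, was in 35 of 79 member windows (44.3%) and 43.7% of all 20807. CCGGAAG, a core of ETS sites, was in 22 (27.8%) against 11.03%, and CACGTG, an E-box, was in 11 (13.9%) against 7.82%. AAGATGG was in 10 (12.7%) against 6.24%, and TATAAA was in 8 (10.1%) against 12.7%. The CpG of CCGGAAG lies inside an MspI site and was therefore not compared. Within 1 kb of member starts, 149 compared cytosines of 43 genes lay in GGGCGG, with levels of 1.03% in siCon and 1.55% in siH19 and a difference of 0.520 (0.105 to 0.935). Of these, 33 were higher in siH19, 23 lower and 93 equal, and 1 had an unadjusted Fisher's exact p under 0.05, in Rpl30. Cytosines in GGGCGG were not measured over all promoters. The difference is therefore not shown to be particular to members or to this string. The 26 cytosines in CACGTG stood at 2.66% and 2.34%.

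An oligopyrimidine run was counted as at least 8 consecutive C or T on the coding strand within 10 bases of any annotated transcript start. It was present at 45 of 79 members (56.96%) and at 21.8% of all protein-coding genes, and the median longest run was 9 bases against 5. The starts of 3 members with such a run and of the 3 restricted copies, none of which reached 8 bases, are printed from 25 bases before the first base to 14 after it, with the longest run in capitals. A shorter run was not particular to these copies, as Rps6 (5 bases), Rpl11 (3) and Rplp0 (5) also fell short. The Rps27l run lies wholly before the first base. Rplp1 is chr9:61914528-61914567 (minus strand), Rpl5 is chr5:107900477-107900516 (plus) and Rps27l is chr9:66946061-66946100 (plus). Rpl3l is chr17:24727795-24727834 (plus), Rpl10l is chr12:66284387-66284426 (minus) and Rpl39l is chr16:10170201-10170240 (plus).
Rplp1: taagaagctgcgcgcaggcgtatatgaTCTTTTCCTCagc
Rpl5: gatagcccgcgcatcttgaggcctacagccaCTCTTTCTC
Rps27l: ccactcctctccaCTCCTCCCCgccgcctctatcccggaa
Rpl3l: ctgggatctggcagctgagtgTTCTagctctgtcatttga
Rpl10l: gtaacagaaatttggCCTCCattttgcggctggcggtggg
Rpl39l: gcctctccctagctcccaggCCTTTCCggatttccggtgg

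Of the 79 promoters, 77 had a compared cytosine and 76 had the 5 needed for a test. Rps2 and Rpl41 had none, and Rpl17 had 2. The 76 tested promoters held 5 to 175 cytosines (median 56.5) and a median of 1812 reads in siCon and 1914.5 in siH19. Their median level was 1.21% in siCon and 1.20% in siH19, against 1.84% and 1.92% for the 13127 tested promoters of all genes. In both libraries 65 of the 76 (85.5%) were under 5%, against 63.0% of all promoters, and 5 (6.58%) were over 50%, against 7.10%. At single cytosines, 92.5% of the promoter cytosines of members were under 10% in both libraries, against 78.1% for all promoters. Over all 5109 member cytosines, 2999 (58.7%) had no methylated read in either library.

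**Figure D1:**
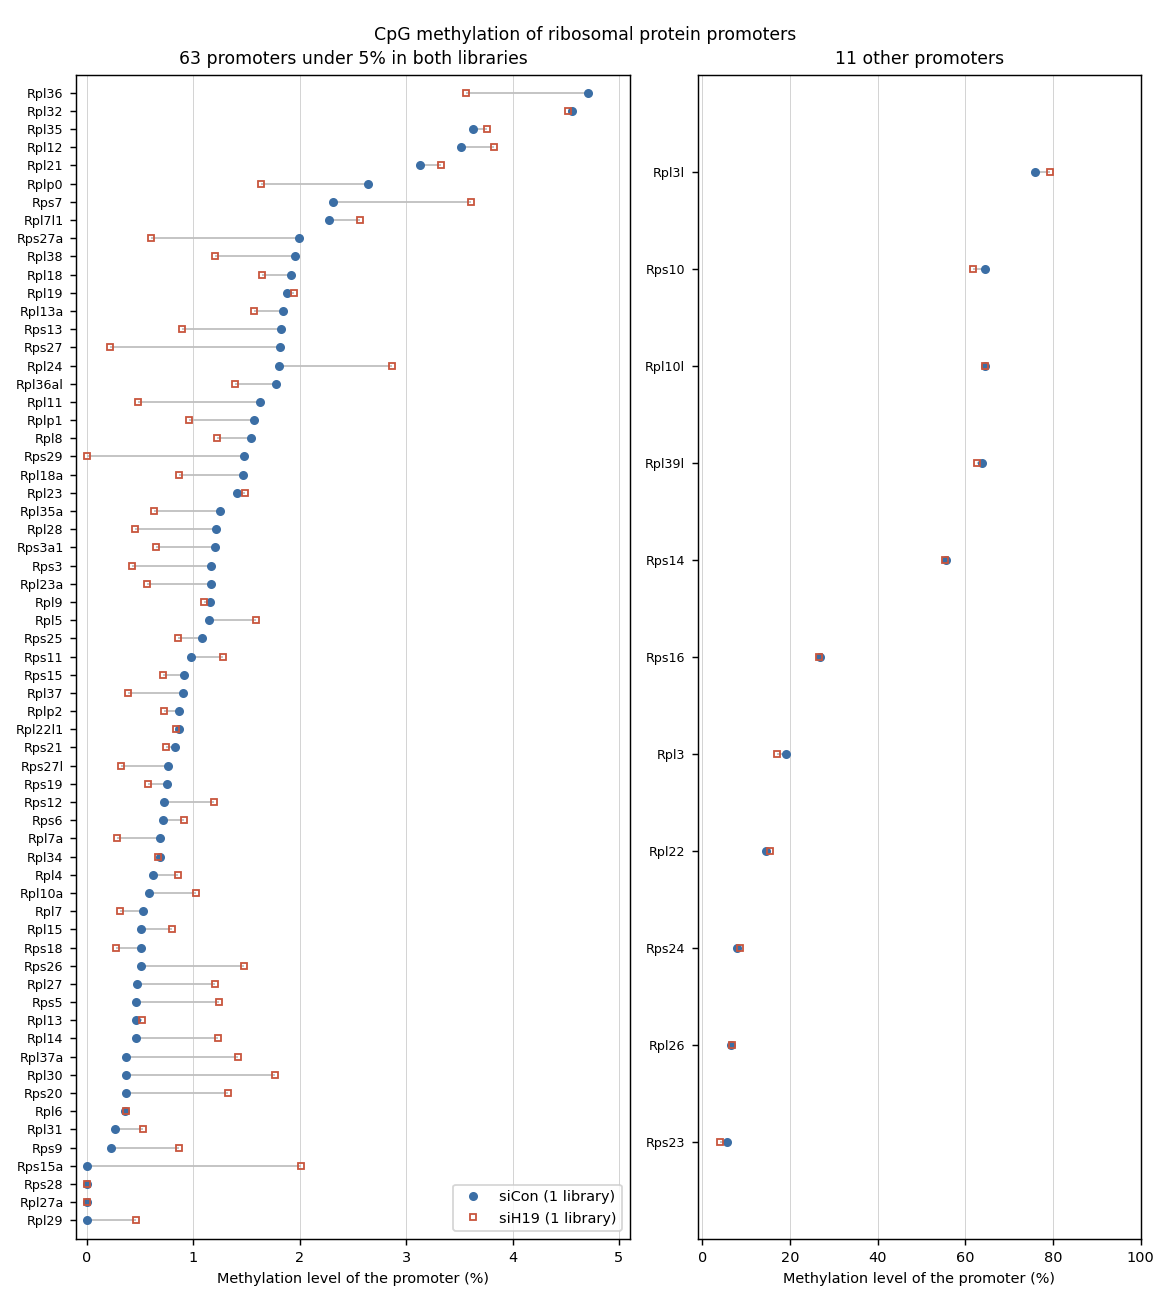
Methylation level (%) of 74 of the 76 tested ribosomal protein promoters in siCon (filled circles) and siH19 (open squares), 1 library each, joined by a line per gene. The 63 promoters on the left lie under 5% in both libraries, and the 11 on the right, drawn on a wider axis, run from Rps23 up to Rpl3l at 75.9% and 79.4%.

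None of the 76 promoters met the call, an adjusted p under 0.05 and libraries at least 10 points apart, against 28 of 13127 (0.213%) among all promoters. A promoter under 10% cannot fall by 10 points, and calls were rare among all promoters, so their absence in members says little. The p-values came from the Cochran-Mantel-Haenszel chi-square test stratified by cytosine, with Benjamini-Hochberg adjustment over all 13127 promoters. Without the minimum difference, 8 members (10.5%) had an adjusted p under 0.05, against 8.06% of all promoters, so the members' share was near the background. Of the 8, 4 were higher in siH19 (5.16% of all promoters) and 4 were lower (2.89% of all). The differences of these 8 were all under 2 points.

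Across members the difference was small in both directions. It was above 0 for 34 promoters, below 0 for 40 and 0 for 2, and 55.6% of all promoters lay above 0 and 44.1% below. In 72 of 76 members (94.7%) it was within 2 points, against 83.8% of all promoters. Since 85.5% of members were under 5% in both libraries, against 63.0% of all, members had less room to fall. These shares are therefore not a comparison at equal level. Over all 4296 promoter cytosines of members siCon stood at 3.19% and siH19 at 3.14%, which differ by -0.054 (-0.137 to 0.028). The same estimate over the promoters of all protein-coding genes, members included, was 0.156 (0.145 to 0.167).

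**Figure D2:**
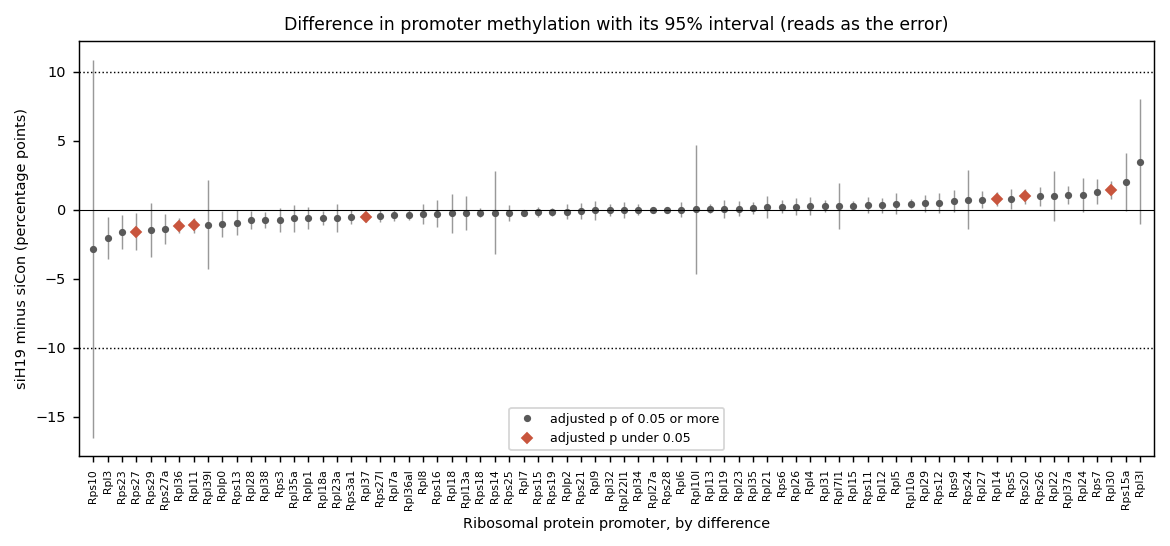
Difference in methylation level (siH19 minus siCon, percentage points) of 74 of the 76 tested ribosomal protein promoters, ordered by size, with its 95% interval from read counts. Diamonds mark the 7 promoters shown with an adjusted p under 0.05, dotted lines mark 10 points, and Rps10, Rpl10l and Rpl3l have the widest intervals.

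Among the large subunit genes, 44 promoters were tested, and the median level was 1.33% in siCon and 1.23% in siH19. The summed difference was -0.057 (-0.162 to 0.048). Rpl5 and Rpl11 encode proteins that bind 5S ribosomal RNA and, when free, the p53 regulator Mdm2. Rpl5 stood at 1.15% in siCon and 1.59% in siH19, with 55 cytosines and a difference of 0.439 (-0.292 to 1.17). Rpl11 stood at 1.62% in siCon (58 of 3274 reads methylated) and 0.484% in siH19 (11 of 2142), and was lower by 1.14 points (adjusted chi-square p = 0.00902). Rpl13a, whose protein is also released to silence translation of inflammatory transcripts, stood at 1.84% and 1.58%.

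The other large subunit promoters with an adjusted p under 0.05 had similarly low levels. Rpl30, whose protein binds a kink-turn in RNA, stood at 0.369% in siCon and 1.77% in siH19 and had the lowest adjusted p of the 76 at 4.33e-05, with a difference of 1.40 (0.751 to 2.05). Within 500 bp of its start the difference was 0.487 (0.0319 to 0.942). Rpl14 stood at 0.460% and 1.23% (adjusted chi-square p = 0.0308). Rpl36 stood at 4.71% in siCon and 3.56% in siH19 (adjusted chi-square p = 6.75e-05), and Rpl37 at 0.906% and 0.391% (adjusted chi-square p = 0.0478). The Rpl36 difference of -1.15 was -0.466 with the deepest 1% of cytosines left out, -0.470 as unweighted means and -2.60 on summed reads. Each of these promoters stayed under 5% in both libraries.

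The Rpl36 window held 4 neighbouring plus-strand cytosines, in an intron and close enough to share reads, that were each lower in siH19. At these, 4 or 5 of 86 reads were methylated in siCon and none of 145 to 148 in siH19, with unadjusted Fisher's exact p-values of 0.00664 to 0.0174. Their partners on the minus strand had 0 of 29 reads methylated in siCon and 0 of 61 or 62 in siH19. The intron stretch that holds them is chr17:56613685-56613716 on the plus strand of GRCm38, with the compared CpGs in capitals.
Rpl36: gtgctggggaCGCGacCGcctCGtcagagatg

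Among the small subunit genes, 29 promoters were tested, and the median level was 1.08% in siCon and 0.911% in siH19. The summed difference was -0.0065 (-0.144 to 0.131). Rps6, the substrate of S6 kinase, stood at 0.712% and 0.911% over 103 cytosines. Rps19, the gene most often affected in Diamond-Blackfan anaemia, stood at 0.752% and 0.577%, and Rps3, which lines the messenger RNA entry channel, at 1.17% and 0.429%. None of these 3 had an adjusted p under 0.05.

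Rps20 stood at 0.368% in siCon (13 of 3333 reads) and 1.32% in siH19 (25 of 1899), with a difference of 0.955 (0.393 to 1.52) and an adjusted p of 0.00562. Rps27, a zinc-finger protein of the small subunit, stood at 1.82% (6 of 429 reads) and 0.217% (1 of 572), with an adjusted p of 0.0338. With cytosines inside CCGG and TCGA included, the Rps27 difference turned from -1.60 to 0.208 (-2.06 to 2.48). These values rested on 1 to 25 methylated reads per library.

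Other small subunit promoters with large differences did not pass the test. Rps23, which sits at the decoding centre, stood at 5.67% in siCon and 4.06% in siH19 (-1.62, -2.84 to -0.396, adjusted chi-square p = 0.0748). Of the methylated reads in its window, 55 of 86 in siCon and 45 of 76 in siH19 came from a single cytosine described below. The Rps23 value is thus not a level of the whole window. Rps7 stood at 2.32% and 3.61% (adjusted chi-square p = 0.0720), and Rps27a, which is made as a fusion with ubiquitin, at 1.99% and 0.599% (adjusted chi-square p = 0.0514). Rps15a had 0 of 171 methylated reads in siCon and 4 of 179 in siH19, and Rps29 had 2 of 150 and 0 of 156. Rps28 and Rpl27a had no methylated read in either library, with 69 and 75 reads for Rps28 and 76 and 115 for Rpl27a, which allows levels of up to 4.35% and 4.00%, and of up to 3.95% and 2.61%, if the reads are taken as independent.

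The 3 stalk genes encode the proteins that recruit elongation factors to the large subunit. Rplp0, which anchors the stalk, stood at 2.65% in siCon and 1.63% in siH19. Rplp1 stood at 1.57% and 0.959%, and Rplp2 at 0.866% and 0.728%. All 3 were lower in siH19 and none had an adjusted p under 0.05 (0.185 for Rplp0, 0.400 for Rplp1 and 0.831 for Rplp2). Over their 187 cytosines the difference was -0.500 (-0.922 to -0.077).

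The restricted or duplicated copies fell into methylated and unmethylated promoters. Rpl3l stood at 75.9% in siCon and 79.4% in siH19, with a difference of 3.48 (-1.02 to 7.98). Rpl10l stood at 64.5% and 64.5% (0.016, -4.65 to 4.69), and Rpl39l at 63.8% and 62.7% (-1.09, -4.31 to 2.12). The copies Rpl22l1 (0.863% and 0.835%), Rps27l (0.763% and 0.317%), Rpl7l1 (2.27% and 2.56%) and Rpl36al (1.78% and 1.40%) stood at the low level of the other members. Among the constitutive partners, Rps27 is given above, Rpl7 stood at 0.529% and 0.316%, and Rpl22 at 14.6% and 15.5%. No difference of a copy had an adjusted p under 0.05.

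Within these windows methylation changed over short distances. In Rpl39l, cytosines from 128 to 43 bases before the start were mostly methylated, ending at 68 of 72 reads in siCon and 94 of 105 in siH19 at 43 bases before, and the first cytosine after the start, at 16 bases, had 3 of 38 and 0 of 22. In Rpl10l, cytosines 105 to 112 bases before the start had 16 to 18 of 19 reads methylated in siCon and 6 to 8 of 7 or 8 in siH19. The other compared CpGs of its printed stretch lie after the start, and the whole stretch stood at 71.1% and 59.2%. Rpl3l was measured only well inside the gene, with no compared cytosine upstream or at the start. Its level is therefore that of the first part of the transcribed region.

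The Rpl22 window was methylated at its upstream end and unmethylated around the start, where most compared cytosines of both libraries had no methylated read. Rps16 carried a block of methylated cytosines inside an unmethylated promoter. At 109 bases after its start 52 of 55 reads were methylated in siCon and 49 of 51 in siH19, and at 145 bases 51 of 55 and 47 of 51, while at 93 bases there were 0 of 49 and 0 of 54. The compared cytosines of this block all lie on the plus strand. Read with C as T, the 40 bases from 109 bases after the start differ by 1 base from 2 other places in the genome, on chromosomes 5 and 8. The corresponding 40 bases of Rpl9 around its start differ by at least 8 bases from every other place searched. Whether reads from elsewhere were placed on Rps16 was not tested.

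**Figure D3:**
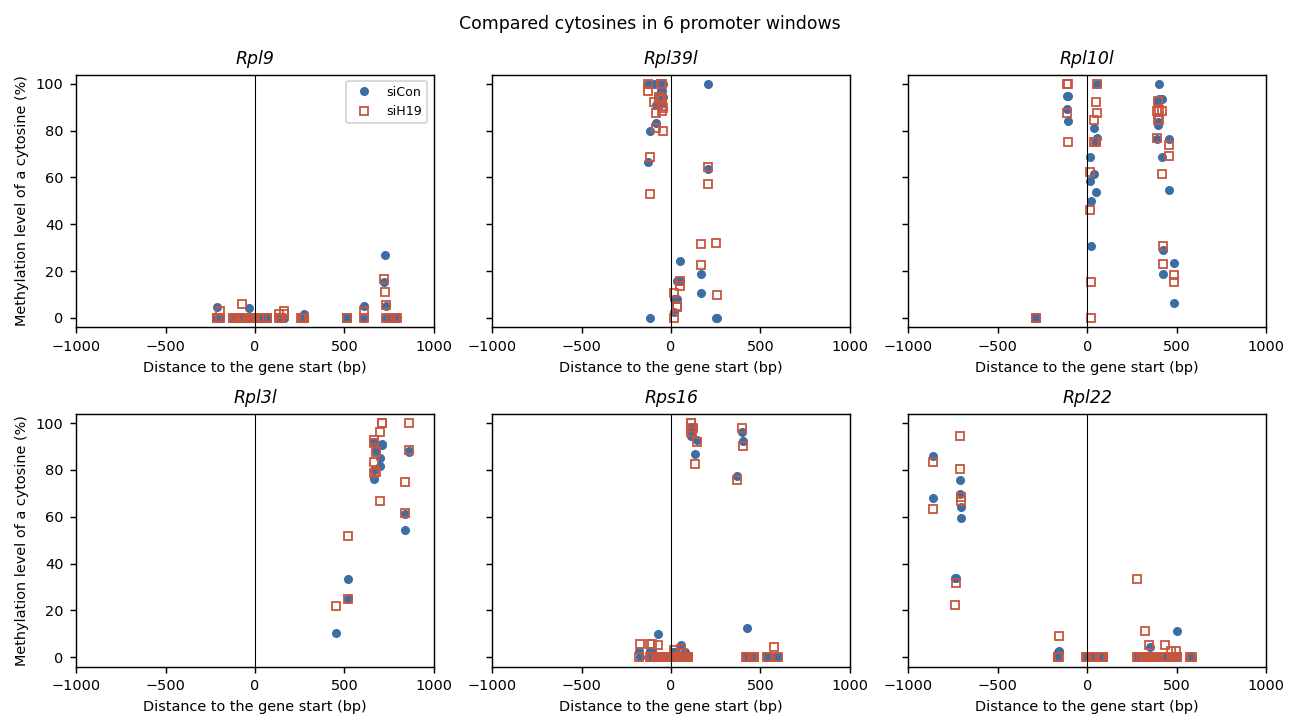
Methylation level (%) of every compared cytosine against its distance (bp) from the gene start in 6 promoter windows, for siCon (filled circles) and siH19 (open squares). Rpl9 is low throughout, Rpl39l and Rpl10l are methylated close to the start, Rpl3l has cytosines only downstream, and Rps16 and Rpl22 hold methylated blocks beside unmethylated stretches.

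Some high windows belonged to a gene start that differs from the start of most transcripts. Rps10 stood at 64.5% and 61.7% at its gene start, on 5 cytosines, whereas the windows of its 4 other annotated starts, 1124 to 2194 bases further in, held 84 to 94 cytosines at 0.230% to 0.863% in siCon and 0.602% to 1.09% in siH19. Rpl3 stood at 19.02% and 17.0% in its window, and around its transcript start 8462 bases further in at 4.54% and 3.13%. Rps24 stood at 7.89% and 8.61% at its gene start. Around its inner starts, 3556 to 3642 bases further in, it fell from 4.71% to 0.940% in siCon and from 4.06% to 0.445% in siH19. Rps14 on chromosome 18, whose protein takes part in small subunit maturation, stood at 55.6% and 55.4% at its gene start and at 0.404% and 0.507% around a start 573 bases further in. Around its start 51 bases in it stood at 41.6% and 41.1%. Around those 27498 to 29141 bases in it stood at 1.47% to 2.71% in siCon and 0.719% to 3.01% in siH19. Rpl17 on the same chromosome stood at 71.4% and 83.3% over its 2 cytosines, and at 3.07% and 2.41% around the start 1919 bases further in. Rpl18 was low at both, with 1.92% and 1.65% at the gene start and 0.339% and 0.425% around the start 2614 bases further in. Rps2 had no cytosine at the gene start and stood at 13.5% and 13.3% around starts 1947 to 2135 bases further in.

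By distance to the nearest annotated transcript start, members were low over a stretch that ran further into the gene than upstream. Between 400 bases before and 600 after, the level in siCon ran from 1.36% to 2.38%, and in all protein-coding genes from 4.79% to 8.42%. From 1000 to 800 bases before the start it was 27.7% in siCon and 28.2% in siH19, on 69 cytosines of 13 genes, against 16.1% and 16.4% for all. From 2000 to 3000 bases after the start it was 67.5% and 69.1%, on 56 cytosines of 14 genes, against 41.8% and 42.2%. Of the 14 distance bins, the interval of the difference left out 0 in 2, from the start to 200 bases (-0.114, -0.226 to -0.0027) and from 800 to 1000 bases (2.05, 0.365 to 3.73, on 71 cytosines).

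**Figure D4:**
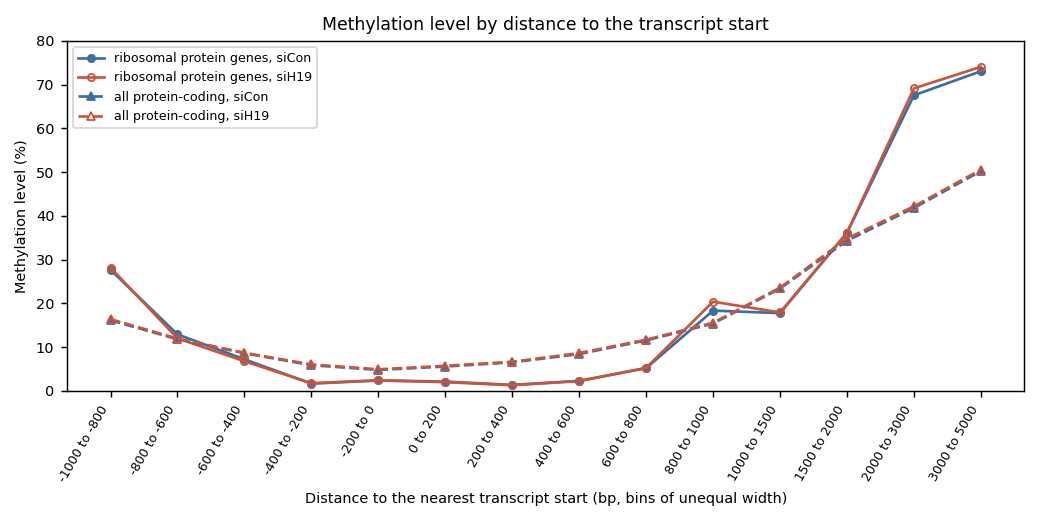
Methylation level (%) by distance (bp, bins of unequal width) to the nearest annotated transcript start, for ribosomal protein genes (circles, solid lines) and all protein-coding genes (triangles, dashed lines) in siCon and siH19. Ribosomal protein genes lie below all genes in the bins from 600 bases before to 800 after the start and from 1000 to 1500 after it, and above them beyond 2000 bases.

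At single cytosines, 30 of 5109 (0.587%) had an unadjusted Fisher's exact p under 0.05, against 2.48% of all compared cytosines. A strongly changed cytosine had such a p and a difference of at least 33 points. There were 6 (0.117%), against 0.956% of all, with 3 higher (0.5% of all) and 3 lower (0.456% of all). None had an adjusted p under 0.05, against 113 of all 1795680 (0.00629%). Most member cytosines are near 0, where a 33-point difference would need many methylated reads in 1 library, so these shares are not a comparison at equal level.

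Of the 6 strongly changed cytosines, 3 were higher in siH19. In Rpl39l, 117 bases before the start at chr16:10170109, 0 of 6 reads were methylated in siCon and 22 of 32 in siH19, while the partner cytosine of the same CpG had 8 of 10 and 18 of 34. In Rps10 at chr17:27636343 the counts were 0 of 6 and 20 of 41, and 4 of 8 and 8 of 30 at the partner, a difference in the other direction. In Rpl22 at chr4:152326020 they were 0 of 27 and 2 of 6, and 0 of 20 and 0 of 6 at the partner. Each of these rested on 6 reads in 1 library.

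The other 3 were lower in siH19. In Rpl34 at chr3:130729074, in coding sequence, 8 of 16 reads were methylated in siCon and 4 of 25 in siH19, and in Rpl35 at chr2:39006054 they were 3 of 9 and 0 of 14. Both differences rested on at most 25 reads per library. The partner of the Rpl35 cytosine had 0 of 2 and 2 of 8, a difference in the other direction. That of the Rpl34 cytosine was not covered in both libraries.

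The lowest p of any member cytosine was in the first intron of Rps23, 593 bases after the start at chr13:90923551. There 55 of 82 reads were methylated in siCon (67.1%, Wilson 95% interval 56.3 to 76.3) and 45 of 106 in siH19 (42.5%, 33.5 to 52.0), with a Fisher's exact p of 0.00113 and an adjusted p of 0.756. The partner cytosine had 5 of 43 and 17 of 61, a difference in the other direction. The neighbouring CpGs within 21 bases had at most 3 methylated reads in either library. Read with C as T, the 40 bases around it differ by at least 7 bases from every other place searched. The stretch is chr13:90923526-90923586 on the plus strand, with the compared CpGs in capitals, and this cytosine is in the last but one of them. It is shown because 1 plus-strand cytosine with many methylated reads sits among CpGs with few.
Rps23: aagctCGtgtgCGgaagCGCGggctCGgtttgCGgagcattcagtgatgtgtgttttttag

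Both strands of a CpG were also compared within each library. They are different cytosines and not repeat measurements, so the shares do not measure the error between libraries. At the 2316 member CpGs compared on both strands, the strands differed with an unadjusted Fisher's exact p under 0.05 in 0.993% of CpGs in siCon and 0.864% in siH19. The libraries differed at the same CpGs in 0.648% on the plus strand and 0.561% on the minus strand. For all autosomal CpGs the shares were 3.42% and 3.22% between strands, and 2.49% and 2.47% between libraries.

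Gene bodies were less well covered than promoters. Of 79 genes, 43 had a compared cytosine outside the promoter window and 25 had the 5 needed for a test. Their median level was 16.9% in siCon and 15.9% in siH19, against 59.5% and 59.7% for the 13571 tested bodies of all genes. Of the 25 bodies, 11 (44.0%) were over 50% and 7 (28.0%) under 5% in both libraries, against 58.1% and 3.18% of all bodies. Several of the low ones lie around the inner transcript starts described above, as in Rps10 with 1.63% and 2.08% and Rpl17 with 2.37% and 1.65%.

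No body met the call, against 0.162% of all bodies. Rpl17 alone had an adjusted p under 0.05 (0.0366, Cochran-Mantel-Haenszel chi-square test), against 1.11% of all bodies, with a difference of -0.724 (-1.14 to -0.304). Of all bodies, 0.788% had such a p and were higher in siH19 and 0.324% were lower. Over the 813 body cytosines of members siCon stood at 13.8% and siH19 at 13.6%, which differ by -0.173 (-0.449 to 0.102).

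Among the tested bodies Rpl6 had the highest level in siCon, with 95.1% against 88.7% in siH19 over 8 cytosines, and had the largest difference towards siCon among bodies with at least 100 reads in each library (-6.41, -12.2 to -0.604, adjusted chi-square p = 0.326). Rps28 stood at 93.0% and 94.5%, Rpl22 at 90.9% and 91.8%, Rpl8 at 89.1% and 91.8%, and Rpl7l1 at 87.5% and 84.6%. The bodies with the lowest siCon levels under the same minimum were Rpl15 (0.520% and 1.06%), Rpl12 (0.992% and 0.686%) and Rpl13a (1.08% and 0.602%). Rpl19 had the largest difference towards siH19 under that minimum, with 67.7% and 72.3% (4.57, -1.86 to 10.997). Rps26 had 68.3% and 63.6%, and the Rpl3l body stood at 49.8% and 51.5%, below its promoter window. Rpl24 stood at 52.1% and 67.7%, on 6 cytosines with 66 reads in siCon and 135 in siH19 (adjusted chi-square p = 0.331).

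**Figure D5:**
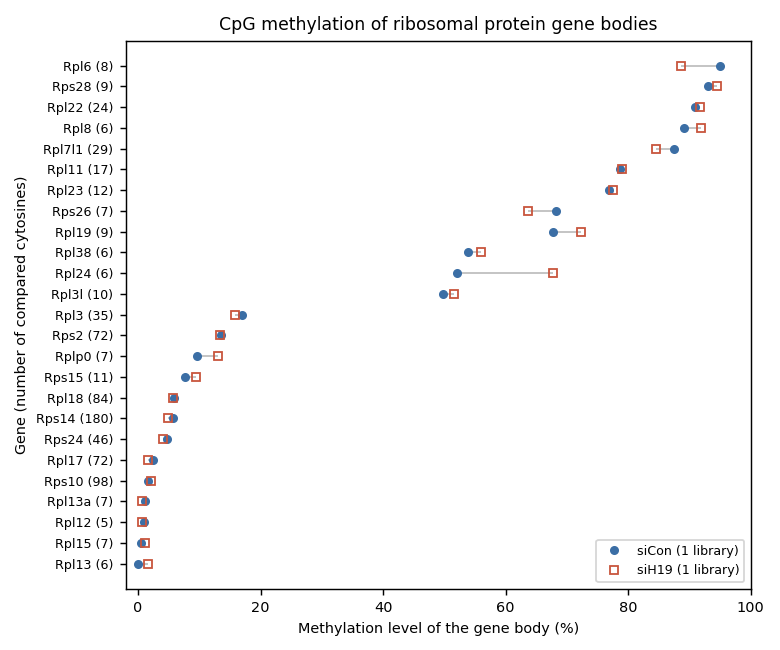
Methylation level (%) of the 25 tested ribosomal protein gene bodies, the part of the gene outside the promoter window, in siCon (filled circles) and siH19 (open squares), 1 library each, with the number of compared cytosines after each symbol. The bodies run from 0% in Rpl13 to 95.1% in Rpl6 in siCon, and Rpl24 on 6 cytosines has the widest gap between libraries.

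Within members the level differed between annotation classes. Promoter cytosines in introns stood at 1.69% in siCon and 1.76% in siH19 (1820 cytosines of 70 genes), those in untranslated exon parts at 2.05% and 1.97%, those in coding sequence at 6.45% and 6.21%, and those upstream at 5.96% and 5.79%. Body cytosines in coding sequence stood at 46.0% and 45.8% (115 cytosines of 23 genes), those in untranslated exon parts at 7.47% and 7.55%, and those in introns at 11.7% and 11.4%. No difference between libraries in these classes had an interval that left out 0. Of the 813 body cytosines, 180 were in Rps14, 98 in Rps10, 84 in Rpl18 and 72 in Rpl17, genes with inner transcript starts. The body classes thus mix inner promoters with the rest of the gene and do not show introns to be less methylated than exons. Inside the members lie 54 snoRNA genes, in 27 host genes, and 16 members had the start of another protein-coding gene in the promoter window, whose cytosines cannot be told apart from the member's.

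Related gene groups also had low promoter levels. The 71 tested promoters of mitochondrial ribosomal protein genes had a median of 1.10% in siCon and 1.24% in siH19. The 32 of ribosomal RNA synthesis and ribosome assembly factors had 0.870% and 0.890%, and the 14 of translation factors 0.652% and 0.711%. No promoter in these groups met the call. Ribosomal proteins whose symbols the naming rule does not match stood at 0.225% and 0.759% (Rpsa), 1.35% and 1.33% (Fau) and 1.34% and 0.504% (Rack1).

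Processed copies of ribosomal protein messenger RNAs are scattered over the genome. Of 256 autosomal pseudogenes annotated under a ribosomal protein gene symbol, 86 held a compared cytosine and 37 held at least 5. Pseudogenes under other names were not counted. The median level of those 37 was 71.6% in siCon and 69.6% in siH19, and 24 of them were over 50% in both libraries. Among tested gene bodies, 44.0% of members and 58.1% of all genes were over 50% in both. Processed copies hold exon sequence, so the promoter windows of members are not a like part to set them against. Rps4l, annotated as a transcribed processed pseudogene, stood at 84.3% and 83.2% over 41 cytosines. Near-identical copies can exchange reads, so values of pseudogenes and of exons of their parent genes are uncertain.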

How the data were processed

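Each strand of a CpG had its own line in the deposited files. The authors' methods name alignment by Bismark, run as non-directional by a sequencing service, trimming of filled-in bases before calling, and a level equal to the share of reads showing C among those showing C or T. The submitters' processing notes name bcl2fastq 1.8.4 and mm10. The Bismark version and duplicate removal are not given in the sources used here. The main field, in a unit other than a plain number, was a text of methylated reads, total reads and a percentage as the authors deposited it. The deposited score, the methylated fraction on a scale to 1000, matched the parsed reads in every entry. Counts were not normalized.

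The gene list, tests and named genes were chosen with earlier results of these data known. Genes came from GENCODE vM21 on GRCm38, and all positions fell on CpGs of that build. Sequences were read from the GRCm38 genome of RefSeq. Cytosines covered by 5 or more reads per library, outside CCGG and TCGA, were tested by two-sided Fisher's exact test. Regions with at least 5 cytosines were tested by the Cochran-Mantel-Haenszel chi-square test stratified by cytosine and called at an adjusted p under 0.05 with at least 10 points. Adjustment followed Benjamini and Hochberg over all autosomal cytosines, promoters or bodies. Named genes were the called regions, the 5 largest differences in each direction and the extreme levels among regions with at least 100 reads in each library, promoters past the adjusted p, strongly changed cytosines, and a fixed list of copies, partners, stalk and widely studied genes. Other genes named for a block, a displaced start or a 0 count were chosen after their values were seen. Whether a stretch has near copies was searched over chromosomes 1 to 19 and X. Python 3.11.15, numpy 2.4.6, scipy 1.17.1 and numba 0.67.0 were used, and the tests were tried on simulated data. Single values of 3 genes are not reported here, and 2 of them are left out of the plots.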

Additional observations from a re-analysis of the deposited data

How the results depend on the processing

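No paired analysis was possible because each group had 1 library, and no replicate could be left out. Of the 366 alternative values of the 41 named promoter and body differences, 338 stayed within the 95% interval of the reported value and 28 fell outside it. Of those 28, 23 kept their sign and 5 turned. On summed reads the turned values were 12.9 at the Rpl39l promoter (reported -1.09), -0.095 at the Rps10 body (0.448) and -1.55 at the Rps15 body (1.64), and with restriction-site cytosines they were 0.208 at the Rps27 promoter (-1.60) and 0.930 at the Rps27a promoter (-1.40). With those cytosines the Rpl36 promoter difference was -0.388 instead of -1.15. The number of strongly changed member cytosines went from 6 to 2 with at least 10 reads, to 2 with the strands of a CpG summed and to 13 with a minimum difference of 20 points. Including cytosines inside CCGG and TCGA raised it to 63 and gave 29 past the adjusted p instead of 0. Inside those sites 57 of 1753 member cytosines (3.25%) were strongly changed and 29 (1.65%) passed the adjusted p. Of all such cytosines the shares were 1.92% and 0.483%. Members' shares were thus above those of all cytosines there and below them outside the sites, but levels differed as well. Member cytosines stood at 53.2% in siCon and 53.4% in siH19 inside the sites, and at 4.77% and 4.70% outside. All cytosines stood at 62.6% and 63.3% inside and at 24.7% and 24.9% outside. These shares are therefore not a comparison at equal level. Of the 29, 17 were higher in siH19 and 12 lower, and the cause was not tested. In that setting the promoter difference went from -0.054 to 0.029, the promoters with an adjusted p under 0.05 from 8 to 3, and the bodies from 1 to 0. Fisher's exact test on summed reads called 2 promoters instead of 0 (1.68% of all promoters), Rpl39l with 55.3% and 68.2% and Rps14 with 58.6% and 47.1%. It put 17 promoters instead of 8, and 2 bodies instead of 1, past the adjusted p, and moved the body difference from -0.173 to -2.10. This setting weighs cytosines by reads that differ between libraries. The unweighted body difference was -0.450, and with all annotated transcript starts it was -0.476 on 348 cytosines. Without a minimum difference the calls are the 8 promoters and 1 body given above. Bodies past the adjusted p numbered 2 with at least 10 reads, 3 with a promoter window of 500 bp and 0 with all transcript starts. The matching shares of all promoters and bodies past the adjusted p were not counted with summed reads, restriction-site cytosines or these settings. Those counts are therefore not results about members. Leaving out soft-masked repeats, or the deepest 1% of cytosines, kept each count within 1.5 times of the reported one.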

Other observations

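The 4 ribosomal protein genes on chromosome X, which belong to no comparison above, had higher promoter levels than the median autosomal member. Rpl10, whose protein joins the large subunit late in assembly, stood at 24.5% in siCon and 16.4% in siH19 over 26 cytosines, a difference of -8.11 (-11.6 to -4.58). Rps4x stood at 29.4% and 29.4%, Rpl39 at 19.4% and 25.8%, and Rpl36a at 16.3% and 17.5% on 9 cytosines. These genes were not in the adjustment over autosomal promoters, and their differences were not tested. Promoters of other genes on chromosome X were not compared. Neither the levels nor the Rpl10 difference are therefore shown to be particular to ribosomal protein genes.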
